A study of Rattus norvegicus with 102 samples.

Results

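The 10 genes described here are Arc, Fos, Fosb, Junb, Egr1, Egr2, Egr3, Egr4, Nr4a1 and Npas4, the immediate early genes that neurons transcribe in response to synaptic activity. They were taken by symbol from the deposited tables, where all 10 were found among the 26284 genes listed. RNA had been sequenced from CA1, CA3 and the dentate gyrus (DG) of 34 male Fisher 344 rats, with 1 library per rat and subfield. All rats had been tested in the water maze and were killed under isoflurane 2 weeks later. The design also names a set shifting task without saying when it ran, and it does not say what the rats did in the hours before death. The labels placed 10 rats in a young group of 5 to 6 months (suffix Y), and aged rats of 17 to 22 months in an unimpaired group of 12 (OG) and an impaired group of 12 (OB). Maze scores were not used here.

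Immediate early genes need no new protein for their transcription, which starts within minutes of calcium entry and is over within hours. Calcium and kinase signals act on factors already bound at their promoters, chiefly CREB at cyclic AMP response elements (CRE) and SRF with its partners at CArG boxes. Most of the genes encode transcription factors: Fos, Fosb and Junb form the AP-1 dimers, Egr1 to Egr4 are zinc finger proteins, Nr4a1 is an orphan nuclear receptor, and Npas4 is a basic helix-loop-helix protein that answers mainly to neuronal calcium. Arc differs from them, since its product acts at the synapse, where it removes AMPA receptors. In the hippocampus the genes are used as marks of recently active neurons.

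The promoters below are shown because the group is defined by how it is switched on. RefSeq promoters of 300 bases, from 250 before to 50 after the start site (build GRCr8), were given for 7 of the 10 genes, and Arc, Fos and Egr3 were not among them. Capitals mark the short form of the CRE (TGACG, or CGTCA on the other strand) and the CArG box, which is 10 bases long with an A and T core between CC and GG. Egr1 (chr18:26736828-26737127, plus strand), Egr2 (chr20:21054392-21054691, minus strand) and Nr4a1 (chr7:134259888-134260187, plus strand) are shown, since they held a CArG box or the most short CREs.
Egr1: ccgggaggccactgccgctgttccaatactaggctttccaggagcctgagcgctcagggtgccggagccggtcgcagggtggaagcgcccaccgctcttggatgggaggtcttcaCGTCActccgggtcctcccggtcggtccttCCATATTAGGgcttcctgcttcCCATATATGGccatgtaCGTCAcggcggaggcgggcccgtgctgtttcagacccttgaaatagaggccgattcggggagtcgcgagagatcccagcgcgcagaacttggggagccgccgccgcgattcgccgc
Egr2: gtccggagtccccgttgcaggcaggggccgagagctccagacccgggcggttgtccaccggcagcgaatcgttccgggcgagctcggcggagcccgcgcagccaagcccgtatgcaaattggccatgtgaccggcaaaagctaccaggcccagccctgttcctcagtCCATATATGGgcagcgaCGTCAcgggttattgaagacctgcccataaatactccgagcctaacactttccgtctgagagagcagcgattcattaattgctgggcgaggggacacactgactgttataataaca
Nr4a1: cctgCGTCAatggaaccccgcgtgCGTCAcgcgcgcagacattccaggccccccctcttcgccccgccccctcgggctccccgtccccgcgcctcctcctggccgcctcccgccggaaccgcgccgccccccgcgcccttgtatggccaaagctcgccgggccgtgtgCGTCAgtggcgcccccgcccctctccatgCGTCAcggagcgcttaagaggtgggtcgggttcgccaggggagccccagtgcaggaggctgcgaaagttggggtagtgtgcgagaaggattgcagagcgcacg

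The same CArG box began 83 bases before the start site in both Egr1 and Egr2, and a short CRE began 66 bases before it in both. Egr1 had a further CArG box at 105 bases and a further short CRE at 135 bases before the start. Nr4a1 held 4 short CREs and no CArG box, and its only match to an EGR site (GCGTGGGCG or GCGGGGGCG) lay 73 bases before the start. Egr4 had 2 short CREs and Junb had 1. The Fosb and Npas4 windows held no match to any of the motifs searched. Short CREs stood in 5 of the 7 promoters, against 21.2% of the 33469 promoters in the table, and CArG boxes in 2 of the 7, against 1.64%. None of the 7 held a whole CRE (TGACGTCA, which contains the short CRE on each strand), an AP-1 site (TGANTCA) or the nuclear receptor site NBRE (AAAGGTCA), which were found in 1.83%, 7.33% and 1.43% of all promoters. EGR sites were found in 3.20%. A match to these letters is not a measured site, and the window is short.

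Libraries of 2 poly-A platforms were compared, Illumina (3250000 to 42750000 recovered reads per library, to the nearest 10000) and Ion Proton (4470000 to 21430000). Levels are given as normalised reads from Illumina, and Ion Proton values are named as such. Subfield markers of 15 libraries lay nearer to another subfield than to their own label on both platforms, and these are called the libraries that stand apart. They were 1 labelled CA1, 10 labelled CA3 and 4 labelled DG, from 13 rats, and by class 2 were Y, 9 OG and 4 OB. Rat numbers fell into a series below 9000 (18 rats, 5 young and 13 aged) and one from 9000 up (16 rats, 5 young and 11 aged), and 11 of the 13 rats were of the higher series. The counts of young and aged rats equal those of the 2 sites in the design, but no label ties a rat to a site. Choroid plexus markers (4 of 4 found) ranged from 4.96 to 150702 normalised reads in sum across libraries. Each set of subfield markers had its highest median in its own subfield. Summed CA1 markers (5 of 6 found) had a median of 11695 in CA1, 4613 in CA3 and 2424 in the DG, CA3 markers (6 of 6) had 13541 in CA3, 8539 in the DG and 5054 in CA1, and DG markers (6 of 6) had 4212 in the DG, 1892 in CA1 and 484 in CA3. In bulk tissue, fewer cells of a type and less RNA per cell cannot be told apart.

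Read depth differed among the genes. Arc had from 252 to 8546 reads per Illumina library and Egr1 from 246 to 5607. Npas4 (median 47 reads), Fos (median 63.5) and Egr2 (median 24, with 5 libraries at 3 reads or fewer) were sparse. Spread within groups was wide. After subfield and class were taken out, the residual SD on the log2 scale was 1.03 for Egr2, 0.95 for Npas4 and 0.77 for Fos, which placed them at the 98.6, 98.1 and 96.3 percentile of the genes tested. The median gene had 0.22, and the least variable members, Egr3 and Junb, had 0.31.

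CA1 had the highest levels of most of the genes. Against CA3, 5 of the 10 were called higher in CA1 (Arc, Egr1, Nr4a1, Junb and Egr4), and all 10 had a positive difference in both tables. Against the DG, 7 of 10 were called higher in CA1 (those 5 with Fos and Egr2). A gene was called when its adjusted p-value from limma was under 0.05, in 1 direction, on both platforms. Of all 14179 genes tested, 7.12% were called higher in CA1 than in CA3 and 13.1% higher in CA1 than in the DG, while 6.95% and 13.2% were called in the opposite direction, in which no member was called. The median log2 difference of the members was 0.46 against CA3 and 0.61 against the DG, beside 0.01 and 0.00 over all genes.

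**Figure D1:**
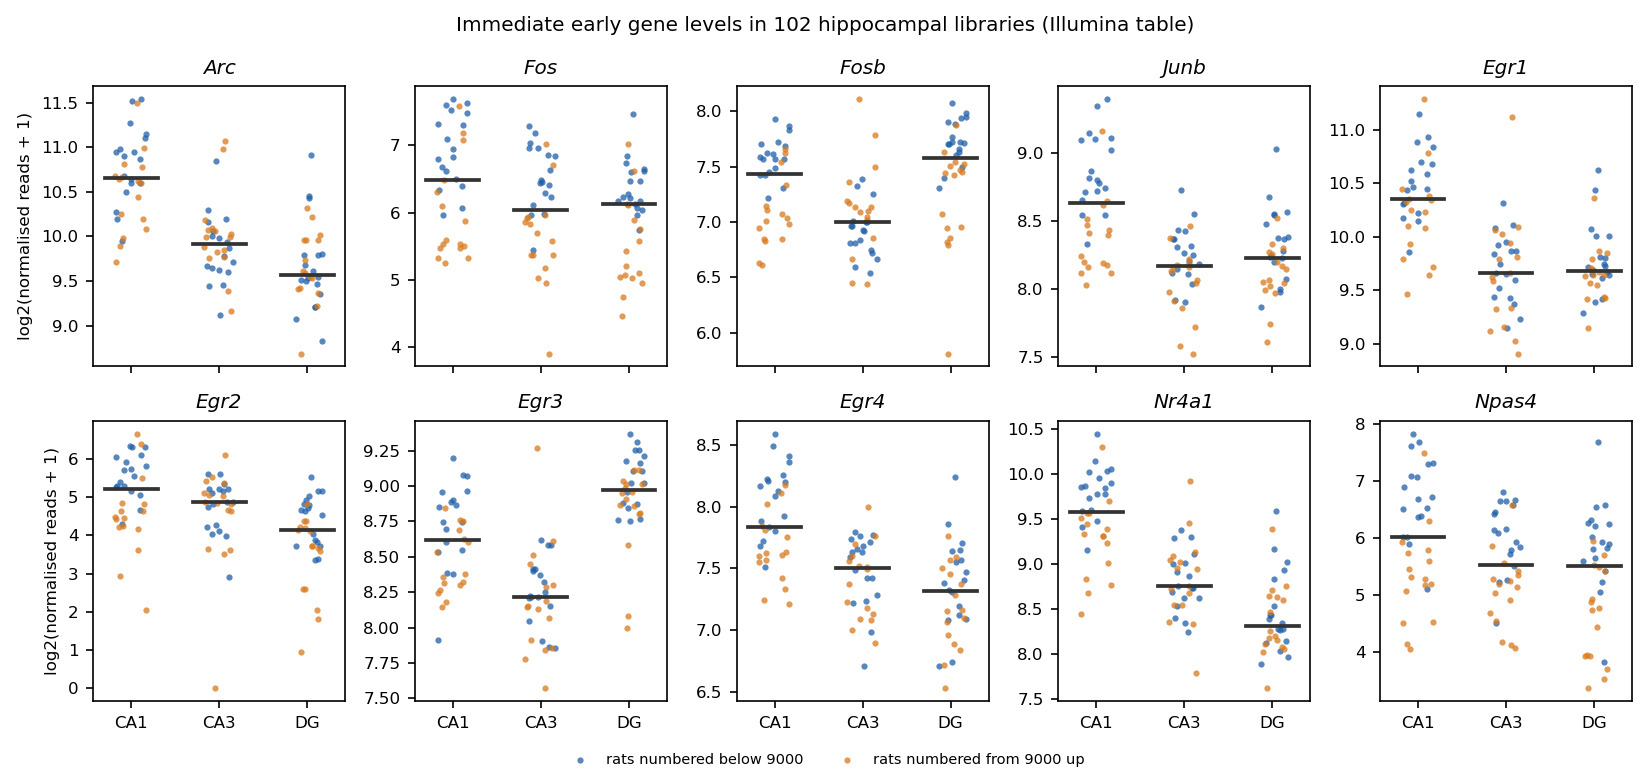
Level of each gene in every Illumina library, as log2(normalised reads + 1), by subfield (34 rats each). Points are libraries, blue for rats numbered below 9000 and orange for the others, and bars are medians. Arc, Egr1 and Nr4a1 sit highest in CA1, while Egr3 sits highest in the DG.

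Arc, the synaptic effector, ranged in CA1 from 840 to 2983 normalised reads with a median of 1611. In CA3 it ranged from 555 to 2151 with a median of 964, and in the DG from 411 to 1923.3 with a median of 759. The ranges overlapped, but within animals CA1 was above CA3 in 31 of 34 rats and above the DG in 32, while CA3 was above the DG in 24. On the log2 scale the difference was 0.74 ± 0.11 (SE) against CA3, with an adjusted p of 2.4e-08, and 1.01 ± 0.11 against the DG, with one of 1.4e-13. The Ion Proton gave 0.74 and 1.14. CA3 was in turn above the DG by 0.27 ± 0.11 (adjusted p = 0.026, Ion Proton 0.40 with adjusted p = 0.0065). This last call was lost without the libraries that stand apart (adjusted p = 0.065).

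Nr4a1 was also called highest in CA1 and lowest in the DG. Its levels ranged from 346 to 1401 in CA1 (median 764), from 219 to 973 in CA3 (median 432) and from 195 to 768 in the DG (median 316). CA1 exceeded CA3 by 0.74 ± 0.10 (adjusted p = 6.1e-09) and the DG by 1.13 ± 0.10 (adjusted p = 1.2e-16), the largest difference among the members, and CA3 exceeded the DG by 0.39 ± 0.10 (adjusted p = 0.00083).

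Among the zinc finger genes, Egr1 had a median of 1305 in CA1, 810 in CA3 and 819 in the DG. It was higher in CA1 than in either by 0.68 ± 0.09 and 0.64 ± 0.09 (adjusted p = 2.7e-09 and 7.8e-09), and CA3 and the DG differed by -0.04 ± 0.09 (adjusted p = 0.72). Egr4 repeated this at lower levels, with medians of 228, 180.5 and 158, and differences of 0.44 ± 0.08 and 0.59 ± 0.08 (adjusted p = 7.2e-06 and 3.4e-09). The call of Egr4 against CA3 was the least firm of the 5, since the Ion Proton passed only at an adjusted p of 0.028, and it was lost without the libraries that stand apart (0.061). Egr2, a sparse gene, had medians of 36, 28.2 and 16.5. It was lower in the DG than in CA1 (1.10 ± 0.25, adjusted p = 9.6e-05) and than in CA3 (0.67 ± 0.25, adjusted p = 0.017).

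Egr3 had its highest level in the DG. Its median was 501 in the DG, 392 in CA1 and 297 in CA3, and it was higher in the DG than in CA3 in 31 of 34 rats in the Illumina table. The DG exceeded CA3 by 0.71 on the log2 scale (CA3 minus DG -0.71 ± 0.07, adjusted p = 2.1e-14, Ion Proton -0.46 with adjusted p = 0.0074). Its difference between CA1 and the DG was -0.33 ± 0.07 (adjusted p = 7.4e-05), but the Ion Proton gave -0.17 (adjusted p = 0.38) and the gene was not called. Fosb shared part of this pattern, with medians of 190 in the DG, 172 in CA1 and 127 in CA3. It was lower in CA3 than in the DG by -0.46 ± 0.09 (adjusted p = 1.6e-05), and CA1 and the DG differed by -0.13 ± 0.09 (adjusted p = 0.23). Fosb is known for a long-lived splice product, ΔFosB, which gene counts do not separate.

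Egr3 and Fosb were thus the 2 members called higher in the DG than in CA3, where 14% of all genes were, and Arc, Egr2 and Nr4a1 the 3 called higher in CA3, where 13.9% were. Read against those shares, 2 and 3 of 10 say little about the members as a group. Junb was near equal in CA3 and the DG (medians 287 and 299.7) and higher in CA1 (397), by 0.48 ± 0.07 and 0.41 ± 0.07 (adjusted p = 8.1e-08 and 2.1e-06). Fos, with medians of 88.8 in CA1, 65.1 in CA3 and 68.6 in the DG, was called only against the DG (0.51 ± 0.18, adjusted p = 0.012). Npas4, with medians of 63.5, 45 and 44.3, was higher in CA1 than in the DG in the Illumina table (0.77 ± 0.23, adjusted p = 0.0027). The Ion Proton difference had the same sign but did not pass (0.52 ± 0.32, adjusted p = 0.22), so the gene was not called.

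**Figure D2:**
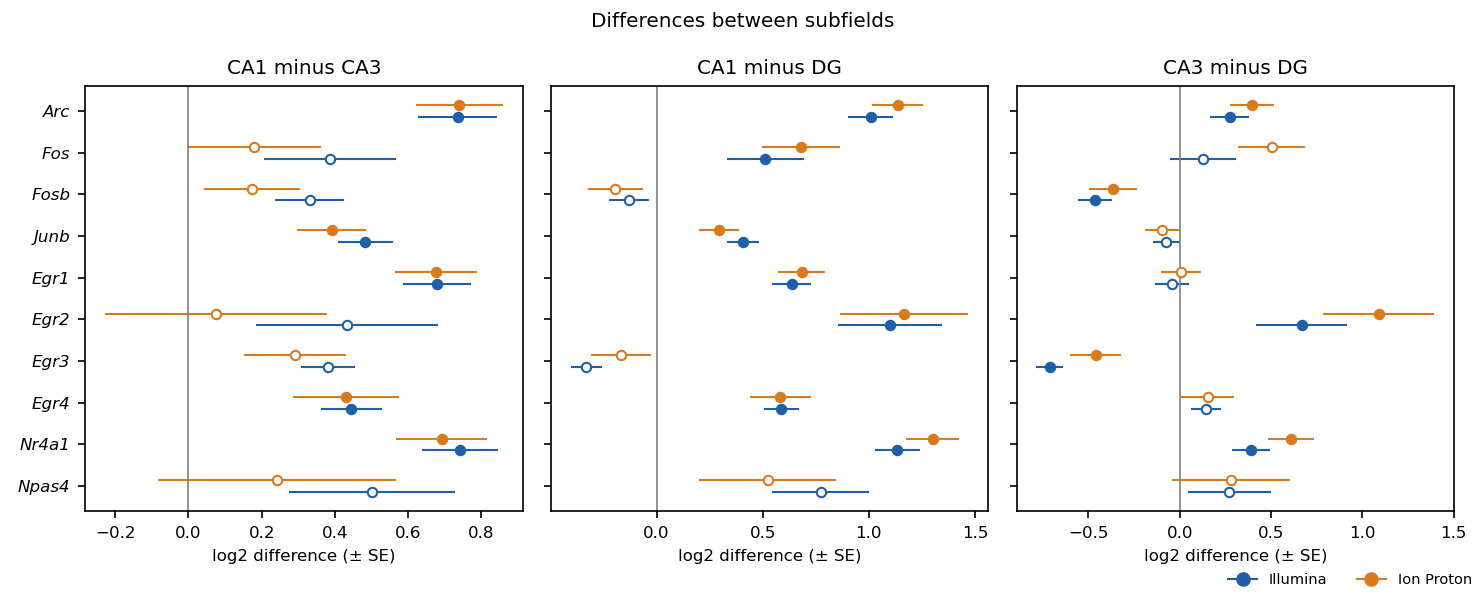
Log2 difference of each gene between subfields, with its SE, from the Illumina (blue) and Ion Proton (orange) tables. Filled points are genes called on both platforms, which number 5 for CA1 minus CA3, 7 for CA1 minus DG and 5 for CA3 minus DG.

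For the 5 genes called highest in CA1, the exceptions against CA3 in the Illumina table were all rats with a library that stands apart. Each of the 3 rats with Arc no higher in CA1 than in CA3 had one, as did each of the 3 for Egr1, the 3 for Junb, the 4 for Nr4a1 and the 6 for Egr4. In the 21 rats with no such library, CA1 exceeded CA3 in 21 for all 5 of these genes in the Illumina table. On the Ion Proton it did so in 21 for Egr1, 20 for Arc and Nr4a1, 19 for Junb and 17 for Egr4, so exceptions there included rats with no such library. In the 18 rats numbered below 9000, CA1 was higher in 18 for Arc, Egr1, Junb and Nr4a1 and in 17 for Egr4 with Illumina, and in 18 for Arc, 17 for Egr1, 16 for Nr4a1, 15 for Junb and 13 for Egr4 with the Ion Proton. Without the libraries that stand apart, the difference of Arc between CA1 and CA3 rose from 0.74 to 0.83 and that of Nr4a1 between CA1 and the DG from 1.13 to 1.24. Members called numbered 4, 7 and 4 in the 3 comparisons, in place of 5, 7 and 5. For Fosb, CA3 minus DG was -0.82 ± 0.07 in the rats below 9000 and -0.07 ± 0.15 in the others, from separate fits. Whether the series differed in this was not tested. The rat is the source of all 3 of its libraries, and with a replicate block on the rat the members called were again 5, 7 and 5.

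Other rapid response genes were called in both directions, as were genes in general (about equal shares each way, given above). Of the 33 in a list of such genes (phosphatases of the MAP kinases, Nr4a2 and Nr4a3, Bdnf, Ptgs2, Homer1 and others), 32 were tested. Against CA3, 5 were called higher in CA1 and 1 lower, led by Ier5 (0.88 ± 0.09, adjusted p = 5.7e-14), the ERK phosphatase Dusp6 (0.67 ± 0.08) and the kinase Plk2 (0.61 ± 0.06). Against the DG, 9 were higher in CA1 and 5 lower. The prostaglandin synthase Ptgs2 and the neurotrophin Bdnf were the furthest from it, at -1.12 ± 0.13 and -1.04 ± 0.12, and the ERK phosphatase Dusp5 stood at 0.81 ± 0.16. Between CA3 and the DG, 6 were called in each direction, with Ptgs2 at -1.32 ± 0.13, Dusp5 at 1.13 ± 0.16 and Bdnf at -1.05 ± 0.12. The list's median log2 difference was 0.14, 0.12 and 0.05 in the 3 comparisons.

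Genes that lie upstream of the group or regulate its products (22, all tested, among them Creb1, Srf, the ERK kinases, the MEF2 factors and the EGR corepressors Nab1 and Nab2) were also called in both directions. Against the DG, more of them were called higher in the DG than lower. Between CA1 and the DG, 2 were called higher in CA1 and 7 lower, of which Mkl1, an SRF partner, the kinase Camkk2 and Map2k1, which activates ERK, each stood at -0.56. CA1 exceeded CA3 in 5 and was below it in 1, with Mef2c at 0.47 ± 0.14, Mef2d at 0.37 ± 0.07 and Srf at 0.26 ± 0.04. CA3 exceeded the DG in 1 (the kinase Rps6ka1, 0.71 ± 0.07) and was below it in 10, with Mef2c at -0.66 ± 0.14 and Mkl1 at -0.62 ± 0.07. The list's median log2 difference was 0.03 for CA1 minus CA3, -0.15 for CA1 minus DG and -0.16 for CA3 minus DG. Of all genes tested, 7.12% were called higher in CA1 than in CA3. Those called higher in the DG were 13.2% against CA1 and 14% against CA3.

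No member passed the test for age. Aged rats (n = 24) were compared with young rats (n = 10) in each subfield, where a gene had to reach p under 0.01 in the Illumina table and a one-sided p under 0.05 in the same direction on the Ion Proton. This passed 0.832% of genes in CA1, 0.393% in CA3 and 1.07% in the DG, and 0 of 10 members in each. With a Benjamini-Hochberg adjusted p under 0.05 in the Illumina table, 0.338%, 0% and 0.3% of genes passed and again 0 members. At an unadjusted p under 0.05 there was 1 member in CA1, 0 in CA3 and 1 in the DG. In CA1, 9 of the 10 had a negative difference, with a median of -0.28 against 0.00 over all genes, but members were correlated across rats, so they are not 9 separate observations.

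Egr1 in CA1 ranged from 1098 to 2499 in young rats (median 1401), from 842 to 1957 in aged unimpaired rats (median 1305) and from 706 to 1764 in aged impaired rats (median 1227). The aged values overlapped the young, and 7 of 24 aged rats lay above the young median. Its age difference was -0.29 ± 0.14 (limma p = 0.047, adjusted p = 0.81), and the Ion Proton gave -0.23 ± 0.17. Npas4 had the largest difference in CA1, -0.66 ± 0.36 (p = 0.075, adjusted p = 0.86). Young rats ranged from 32.7 to 225.9 with a median of 102.2, and aged rats from 15.5 to 195 with a median of 60.6. Taking the number series into the fit narrowed the error to give -0.72 ± 0.26 (p = 0.0081), which passed the retest rule, although the adjusted p was 0.28.

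Fosb in the DG had the lowest age p-value of the members and was higher in aged rats. Young rats ranged from 55.2 to 238 (median 162), aged unimpaired rats from 171 to 268 (median 190), and aged impaired rats from 115 to 252 (median 205), and 21 of 24 aged rats lay above the young median. The difference was 0.39 ± 0.15 (p = 0.014, adjusted p = 0.65) and on the Ion Proton 0.46 ± 0.20 (p = 0.025). It was 0.63 ± 0.20 in the rats numbered from 9000 up and 0.13 ± 0.10 in the rats below 9000. Without young rat R9881, whose DG library had the lowest Fosb of all, it was 0.24. With the number series in the fit it was 0.37 ± 0.12 (p = 0.0037) and met the retest rule, with an adjusted p of 0.24.

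**Figure D3:**
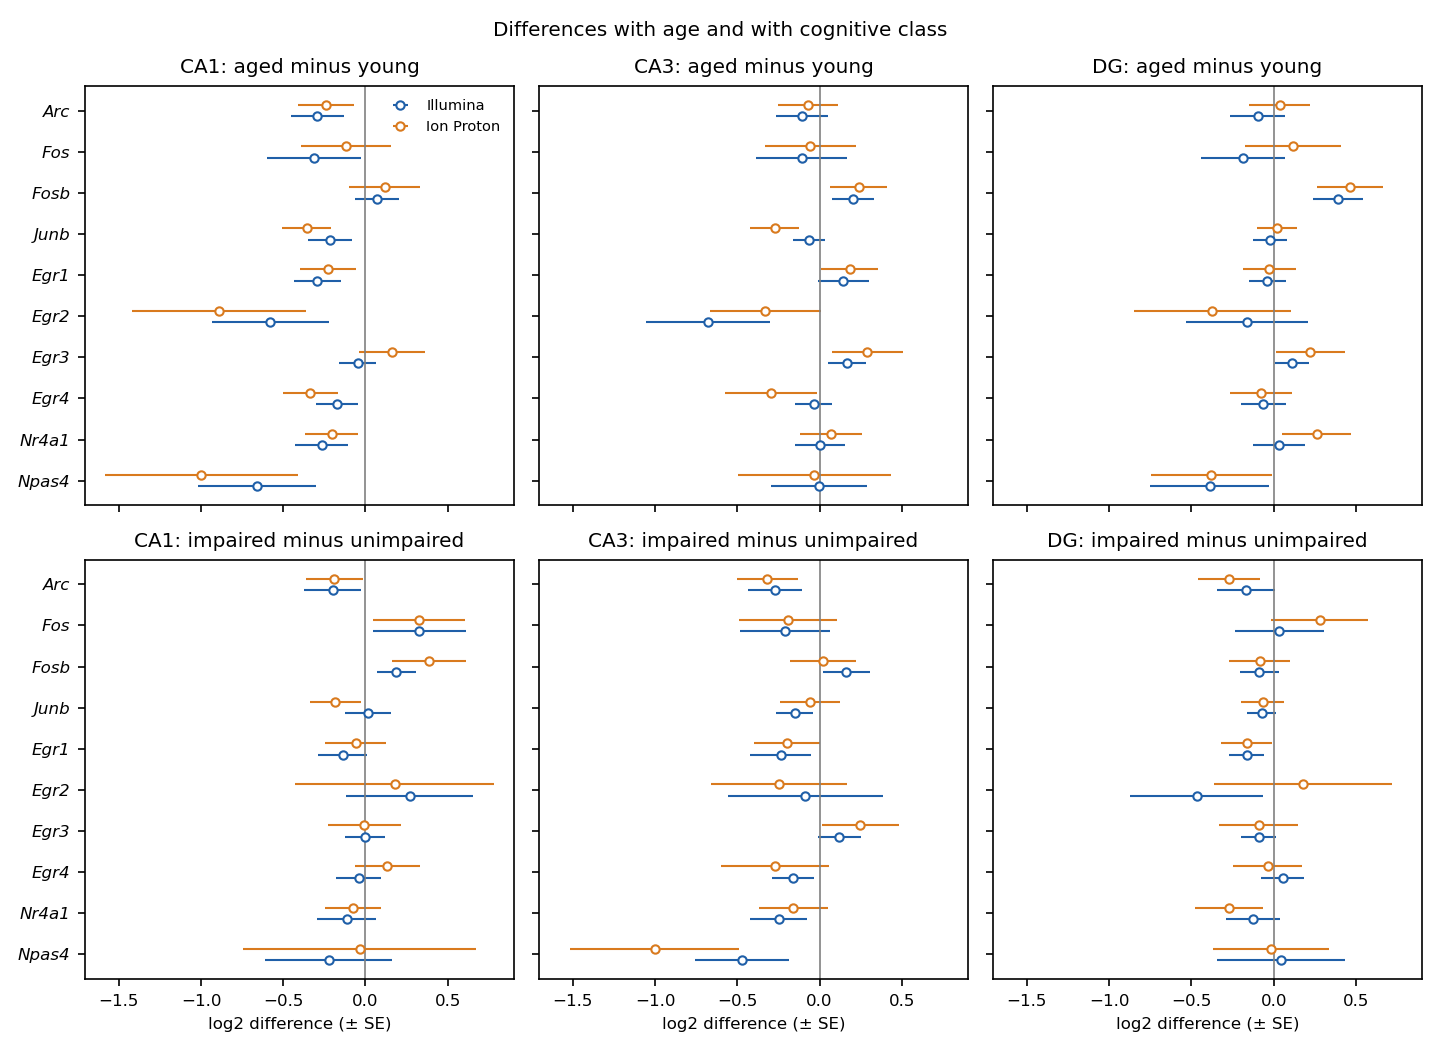
Log2 differences of the 10 genes with age (top, aged minus young) and with cognitive class (bottom, impaired minus unimpaired) in each subfield, with SE, for the Illumina (blue) and Ion Proton (orange) tables. No member met the retest rule, so every point is open; in CA1, 9 of 10 Illumina points lie below 0 for age.

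No member passed the test for cognitive class. Aged impaired rats (n = 12) were compared with aged unimpaired rats (n = 12), and 0.62%, 0.0211% and 0.121% of genes passed the retest rule in CA1, CA3 and the DG, with 0 of 10 members in each. The adjusted test passed 0% of genes in each subfield, and no member had an unadjusted p under 0.05. Negative differences were found for 6 members in CA1, 8 in CA3 and 7 in the DG. The members' medians were -0.02, -0.19 and -0.09, against 0.00 over all genes, but the members are not separate observations. The widest Illumina differences were those of the sparse genes, Npas4 in CA3 (-0.47 ± 0.29, Ion Proton -1.002 ± 0.51) and Egr2 in the DG (-0.47 ± 0.41, Ion Proton 0.18 ± 0.54, the opposite sign). For Arc the difference was -0.20 ± 0.17 in CA1, -0.27 ± 0.17 in CA3 and -0.17 ± 0.17 in the DG. In CA1 its range was 840 to 2983 in unimpaired rats (median 1719) and 951 to 1977 in impaired rats (median 1552). Of the 12 impaired rats, 4 lay above the unimpaired median.

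Whether age or class acted differently between subfields was tested as an interaction. Of all genes, 0% passed an adjusted p under 0.05 in each of the 6 interactions with limma. An unadjusted p under 0.05 was found for 50 to 740 genes. With so many genes tested such p-values also arise without any difference, so these counts are not read as results. That fit had no block on the rat. With a replicate block on the rat the counts were 88 to 1058, and again 0 genes passed the adjusted p. For age, edgeR called 14 genes between CA1 and CA3. For class it called 2 between CA1 and CA3 and 1 between CA3 and the DG, and it called 0 in the other 3 interactions. Among the members 0 passed, and 1 had an unadjusted p under 0.05: the age difference of Egr1 was lower in CA1 than in CA3 by -0.44 ± 0.20 (p = 0.031, adjusted p = 1). Of the other rapid response genes, 1 of 32 met the age rule, the clock gene Per1 in CA1 (-0.18 ± 0.06, p = 0.0046, adjusted p = 0.34), and of the upstream genes 0 of 22. For cognition both lists had 0.

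Members were called between the rat number series, where 0 were called for age or class. Genes in general were also called more often between the series than for age (at most 1.07%) or class (at most 0.62%). The comparison of series was added after the data were seen, and its groups are not groups of the study. Rats numbered below 9000 were higher, with class as a covariate, for 6 members in CA1 (Egr1, Egr2, Fos, Junb, Nr4a1 and Npas4), 2 in CA3 (Fos and Junb) and 4 in the DG (Egr2, Fos, Fosb and Npas4), and for 0 was the reverse called. Of all genes tested, 8.1%, 14.2% and 8.19% were called higher in rats numbered below 9000 in the 3 subfields. The share of all genes called in the reverse direction is not given here, so whether 0 members is few cannot be judged. Arc was called in none. The direction of Egr1 in CA1 turned in the WT table, where its difference was -0.39 ± 0.15 against 0.34 ± 0.12 with Illumina. Without the libraries that stand apart, 4, 1 and 4 members were called.

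Npas4 moved furthest. In CA1 it ranged from 33.4 to 225.9 below 9000 (median 102.2) and from 15.5 to 179 from 9000 up (median 38.2), a log2 difference of 1.42 ± 0.23 (adjusted p = 1.8e-05), and 17 of 18 rats of the first series lay above the median of the second. In the DG the medians were 58.9 and 25.9 (1.27 ± 0.26, adjusted p = 0.00036), and in CA3 67.8 and 34.8 (0.98 ± 0.20), where the Ion Proton gave 0.57 ± 0.40 and the gene was not called. Fos, the companion of Junb in AP-1, was called in all 3, by 0.95 ± 0.21 in CA1, 0.94 ± 0.20 in CA3 and 0.88 ± 0.19 in the DG. Its CA1 medians were 117.5 and 46.3, with 18 of 18 rats of the lower numbers above the median of the others. Arc had CA1 medians of 1891 and 1563 and differed by 0.35 ± 0.14 in CA1 (Ion Proton 0.14 ± 0.15), -0.13 ± 0.14 in CA3 and 0.00 ± 0.15 in the DG. Whether the genes differed from each other in this was not tested.

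Other values moved with the series too. The summed level of the excitatory neuron markers found (2 of 3) in CA3 ranged from 25292 to 42328 below 9000 (median 36546) and from 17955 to 30848 from 9000 up (median 22895). In CA1, interneuron markers (4 of 4) ranged from 5752 to 8451 (median 6988) and from 4081 to 6728 (median 5250), and choroid plexus markers (4 of 4) from 5.41 to 11395 (median 66.6) and from 80.2 to 150702 (median 610). Microglia markers (4 of 4) had higher medians from 9000 up in all 3 subfields, with CA1 at 2619 against 3016, CA3 at 2414 against 2847, and the DG at 2137 against 2517. Excitatory neuron medians were 25310 and 22991 in CA1 and 34370 and 33454 in the DG. The choroid plexus medians were 17.5 and 337 in the DG and 179 and 454 in CA3. Interneuron markers in CA3 had medians of 6219 and 6334. Also in CA3, the medians below 9000 and from 9000 up were 1670 and 2529 for subiculum markers (3 found), 592 and 943 for neocortex markers (3 found) and 977 and 1561 for endothelium markers (3 found). No sum was at 0. The part of these cell types in the result was not tested.

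**Figure D4:**
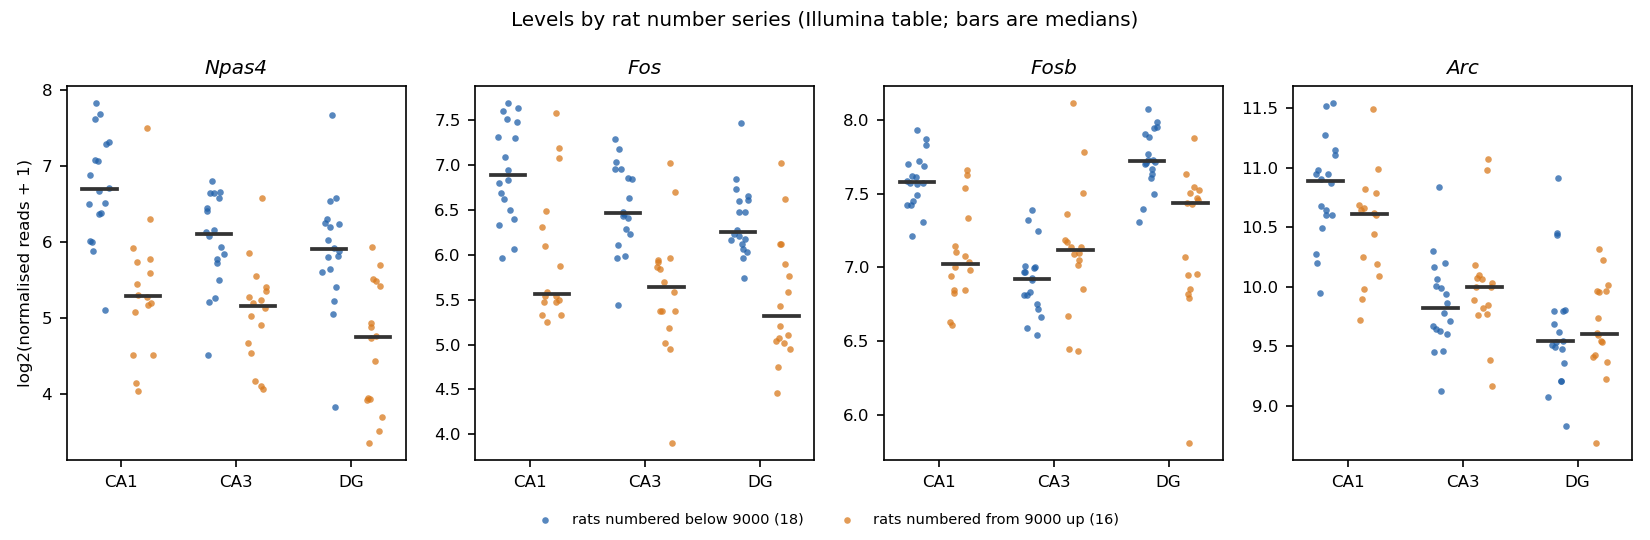
Levels of Npas4, Fos, Fosb and Arc as log2(normalised reads + 1) in rats numbered below 9000 (blue, 18) and from 9000 up (orange, 16). Points are libraries and bars medians; in CA1 the Npas4 medians are 102.2 and 38.2 normalised reads, while those of Arc are 1891 and 1563.

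Levels of many members were correlated from rat to rat. Correlations were computed on log2 values centred on class, for 45 pairs in each subfield and 135 in all, with 100000 permutations and Benjamini-Hochberg adjustment over the 135. In CA1 all 45 were positive, with a median r of 0.75 (range 0.34 to 0.90), and 44 passed an adjusted p under 0.05 by r and 45 by Spearman's rho. These tests were centred on class and not on number series. With both centred, 4 of the 9 CA1 pairs of Egr3, all of which had passed by rho, were near 0, at r = 0.03 with Egr2 (0.34 before), 0.04 with Npas4 (0.42 before), 0.10 with Egr4 (0.39 before) and 0.11 with Fos (0.40 before), while the other 5 had 0.25 to 0.55. In the DG the median was 0.55 and 33 passed, and in CA3 it was 0.26 and 22 passed (21 by rho). The CA3 median was 0.44 without the libraries that stand apart, 10 of which are labelled CA3, and 0.51 when values were centred on class and number series. On the Ion Proton the medians were 0.50 in CA1, 0.36 in CA3 and 0.54 in the DG, so the order of the subfields differed between platforms. All members of a library share its depth and scaling. Within the series the CA1 median was 0.56 below 9000 and 0.66 from 9000 up, and those of CA3 (0.35 and 0.43) and the DG (0.60 and 0.56) were no lower than the pooled values.

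Arc and Nr4a1 formed a close pair in every subfield, with r of 0.90 in CA1, 0.89 in CA3 and 0.91 in the DG (rho 0.89, 0.88 and 0.93, each with a permutation p of 1e-05, the smallest these permutations can give, and adjusted p = 2.65e-05 for r and 3.07e-05 for rho). Without the 2 rats farthest from the median of Arc, r was 0.88, 0.85 and 0.88, and it was 0.87 to 0.93 within each series. Egr1 belonged with them, at 0.85, 0.90 and 0.85 with Nr4a1. Fos and Npas4 had r of 0.79, 0.79 and 0.86 in the Illumina table, and 0.62, 0.62 and 0.76 with number series centred as well, although the Ion Proton gave 0.35 in CA1 and 0.00 in CA3.

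Correlations of Egr3, Fosb and Egr2 were lower in places. In the DG of the Illumina table, Egr3 had a median r of -0.02 with the other 9 members and passed with 1 of them, Fosb (r = 0.71, rho = 0.55, adjusted permutation p = 7.11e-05 and 0.0018). Without 2 rats that r was 0.45. The low median was not found on the Ion Proton, where Egr3 had a median r of 0.41 in the DG, and it was 0.21 without the libraries that stand apart. In CA3, Fosb had a median r of -0.04 and Egr2 one of -0.09, against 0.37 and 0.14 on the Ion Proton. A negative relation of Egr2 with Egr3 in CA3 (r = -0.50, rho = -0.22, adjusted permutation p = 0.009 and 0.26) rested on 2 rats, without which r was -0.05.

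**Figure D5:**
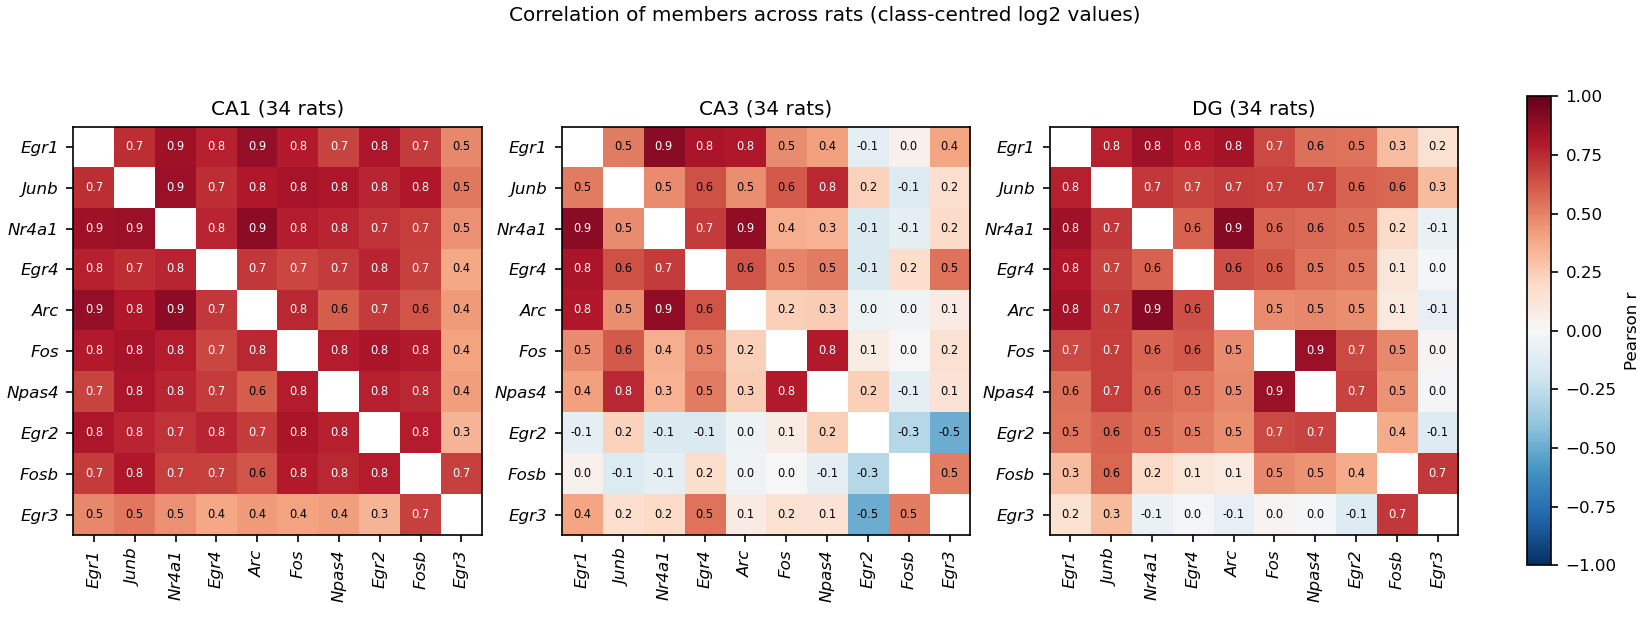
Pearson r of each pair of genes across 34 rats in CA1, CA3 and the DG, on log2 values centred on class, from -1 (blue) to 1 (red). CA1 is positive throughout with a median of 0.75, while most values of Egr2 and Fosb are near or below 0 in CA3, as are most of those of Egr3 in the DG other than with Fosb (0.71).

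Levels in 1 subfield were then set against those in another. Of 30 relations of a gene between 2 subfields, 14 passed an adjusted permutation p under 0.05 by r and 13 by rho. Npas4 was related throughout, with r of 0.71 between CA1 and CA3 (adjusted permutation p = 0.0002), 0.80 between CA1 and the DG and 0.67 between CA3 and the DG, and so was Fos (0.72, 0.52 and 0.62). Within the series below 9000 they were 0.70, 0.79 and 0.55 for Npas4 and 0.83, 0.66 and 0.65 for Fos. Within the series from 9000 up they were 0.27, 0.52 and 0.33 for Npas4 and 0.39, 0.03 and 0.27 for Fos, and the Ion Proton gave 0.15 to 0.33 for Npas4 and 0.37 to 0.47 for Fos. The tests were centred on class alone. With values centred on class and series, r was 0.48, 0.61 and 0.41 for Npas4 and 0.55, 0.17 and 0.35 for Fos, and that of Fosb between CA1 and the DG went from 0.51 to 0.05. Arc had 0.06 between CA1 and CA3 and 0.39 between CA1 and the DG. Nr4a1 had -0.09, 0.24 and 0.22, none of which passed. These pooled values joined unlike series. In the same order of subfields, rats below 9000 had 0.63, 0.63 and 0.40 for Arc and 0.49, 0.57 and 0.39 for Nr4a1. Rats from 9000 up had -0.32, 0.16 and 0.09 for Arc and -0.44, -0.14 and 0.10 for Nr4a1. Whether the series differed in this was not tested.

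Between platforms, the level of a member across the same rats correlated with a median r over members of 0.69 in CA1, 0.53 in CA3 and 0.74 in the DG. The best were Egr1 in CA1 (0.89) and Npas4 in the DG (0.88), and the poorest was Junb in CA3 (0.27).

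Genes that were most like the members were sought among the 14179 tested by the mean over subfields of r with the members' mean. Outside the group the first was Dusp1, a MAP kinase phosphatase that is itself an immediate early gene, at 0.68 (0.82 in CA1, 0.40 in CA3, 0.80 in the DG) and 0.67 on the Ion Proton. Others were Fbxo34 (0.67), Cecr6 (0.66), Ubl7 (0.61), the chemokine Cx3cl1 (0.59), Atcay (0.59), LOC100125362 (0.58), Mical2 (0.57) and St8sia5 (0.57). On the Ion Proton LOC100125362 had -0.21, and the others named had 0.42 to 0.67. The median over all genes was 0.00, and 43 genes exceeded 0.5. These include 9 members, each of which is itself part of the mean it was set against, so their values are raised by construction. Of the list of 32 rapid response genes, 6 exceeded 0.5 and the median was 0.32. Of the 22 upstream genes 0 did, and their median was 0.14.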

How the data were processed

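RNA from 3 dissected subfields of each of 34 rats was sequenced. The authors deposited 3 tables of gene counts divided by DESeq2 size factors, a normalised signal per gene. Per the labels and the study's methods, Illumina reads were trimmed with cutadapt 1.8.3, aligned to rn5 with STAR 2.5, counted with featureCounts 1.4.4 and scaled with DESeq2 1.16.1 (bcl2fastq 2.17 before this; versions are those of the submitters' processing notes, and the methods name an earlier DESeq2 version for the tests), and Ion Proton reads were aligned with TopHat2 and Bowtie2. How the libraries of the third table (WT) were made is not given in the sources used here. The labels and the methods name different Illumina kits, so whether counting used strand is unknown, and reads from overlapping antisense genes could not be separated. Whole reads were recovered from the deposited signal within 0.01 reads, with 3250000 to 42750000 per Illumina library, 4470000 to 21430000 on the Ion Proton and 3540000 to 20630000 in the WT table (nearest 10000).

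Groups came from the sample titles. Values were tested as log2(value + 1) with limma 3.58.1 (R 4.3.3, trend) over genes with a mean of at least 10, so that fold changes of low genes are understated. Benjamini-Hochberg adjustment ran over all genes tested. Subfield calls needed an adjusted p under 0.05 in both poly-A tables. Age and class calls needed an Illumina p under 0.01 and an Ion Proton one-sided p under 0.05 in the same direction, and both tables hold the same rats. Libraries of 1 number come from 1 rat, and the rat was a replicate block in an alternative. The fits were tested on simulated data. Alternatives were edgeR 4.0.16 and DESeq2 1.42.0 on the recovered reads, quantile scaling, a pseudocount of 0.1, no filter, the WT table, leaving out libraries or rats, and, chosen after seeing the data, the comparison of number series. All members are named. From the lists of other genes, the 3 called genes with the largest difference per subfield comparison are named, with every one that met the age or class rule and the 10 genes most like the members, of which 1 is not reported here. The members and lists were chosen with earlier results of these data known.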

Additional observations from a re-analysis of the deposited data

Results flagged for a closer look

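Of 30 groups of young rats, 10 genes in 3 subfields, 7 had a sample far from the other 9 (a gap to the nearest, as a share of the group's range, above Dixon's critical value), where chance gives about 1 in 20 groups if values are normally distributed. The ratio was taken on normalised reads. On log2(normalised reads + 1), chosen after seeing the data, 6 groups had such a sample, of which 5 are the same: Egr1 and Npas4 in the DG no longer did, and Fosb in the DG did. The aged groups of 12 were not tested in this way.

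In the DG, 4 of the 7 belonged to young rat R2221, at 1923.3 normalised reads for Arc (next highest 995.7), 1577.8 for Egr1 (next 1076), 767.9 for Nr4a1 (next 398.9) and 202.7 for Npas4 (next 77.86). These genes correlate across rats, so the 4 values are not independent. In CA3, young rat R9879 was highest for Arc at 2022.6 (next 1257) and for Nr4a1 at 704 (next 512.6), and its CA3 library is among the 15 whose markers lay nearer to another subfield. Young rat R9881 was lowest for Egr3 in the DG, at 253.8 against 431.8 for the next, and it also had the lowest DG level of Fosb, 55.2.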

How the results depend on the processing

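Members called between CA1 and CA3 numbered 5, and 3 in rats numbered from 9000 up. Between CA3 and the DG they numbered 5, and 3 in rats below 9000, 2 in rats from 9000 up, 3 without the deeply sequenced rats and 3 with the WT table as the retest. Leaving out 1 rat at a time gave 4 to 5 in each of these. Egr4 between CA1 and CA3 was lost without rat R2184 or R9870, Arc between CA3 and the DG without R9879, and Fosb without R2182 or R2185. Fosb between CA1 and CA3 turned to -0.052 in rats from 9000 up. With the rat as a replicate block the counts were 5, 7 and 5, and no call changed.

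For age, 0 members were called in each subfield. In CA1 there was 1 with the number series as a covariate (Npas4) and 1 in rats below 9000 (Egr2), and in CA3 1 in rats below 9000 (Fos). In the DG, Fosb was the 1 called without the libraries that stand apart, with the number series as a covariate, in rats from 9000 up and without the deeply sequenced rats. Leaving out 1 rat at a time gave 0 to 1, with 1 without rat R1923, R2176, R2221, R9781, R9872 or R9874. Between number series, members called in CA3 fell from 2 to 1 without the libraries that stand apart. The median correlation in CA1 was 0.75, but 0.56 within rats below 9000 and 0.50 in the Ion Proton table. The causes were not tested. The counts and medians given here include all 21 that moved, and the other 441 stayed within 1.5 times or 1 SD. Egr2, Npas4 and Fos had the fewest reads, and the part of depth in their results was not tested.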

Other observations

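Egr1 differed in direction between tables in the comparison of number series. In the WT table its CA1 median was 224 normalised reads in the 18 rats below 9000 and 309 in the 16 from 9000 up, and 2 of the 18 lay above the median of the others. In the Illumina table the medians were 1435 and 1212, and 14 of the 18 lay above. In CA3 the WT medians were 148 and 195. Across the same rats, CA1 levels of Egr1 correlated between the Illumina and Ion Proton tables at r = 0.89 and between the Illumina and WT tables at r = 0.35. How the WT libraries were made is not given in the sources used here, and the difference between tables was not tested.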
